A study of Mus musculus with 9 samples.

Results

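The 7 genes described here were those for making, storing and taking up catecholamines, Th, Ddc, Dbh, Slc18a2 and Slc6a2, and 2 transcription factor genes of the sympathetic lineage, Phox2a and Hand2. They were found in the deposited table by the Ensembl identifiers of their symbols, and all 7 of 7 had a row among 45904 identifiers. Th was taken up because its difference between aged and young ganglia was already known, and the others because they act beside it in sympathetic neurons, so that differences with age in these genes are given as a description and not as a test. The question was whether Th changed alone or with the sympathetic genes.

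RNA came from whole dorsal root ganglia of the sciatic nerve of C57BL/6 mice, 24 h after surgery. The young sham group held mice of 8 to 10 weeks, and the aged sham and aged injury groups held mice of 20 to 22 months. Injury was to the sciatic nerve, sham was the control operation, and each group had 3 libraries, each a pool of 2 mice. Injured young ganglia were not analysed here, so the effect of injury is given for aged mice alone.

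Catecholamines are made from tyrosine. Tyrosine hydroxylase, the product of Th, makes L-DOPA and is the rate-limiting step, aromatic amino acid decarboxylase (Ddc) turns L-DOPA into dopamine, a vesicular monoamine transporter (Slc18a2) loads it into vesicles, and dopamine beta-hydroxylase (Dbh) converts it there to noradrenaline. Sympathetic neurons use all of these, take noradrenaline back up through the transporter Slc6a2, and owe their identity to factors such as Phox2a and Hand2. Dorsal root ganglia hold sensory neurons, and Th is known there as a marker of C-fibre low-threshold mechanoreceptors, unmyelinated touch neurons of hairy skin. Sympathetic ganglia lie close by, and sympathetic fibres reach the dorsal root ganglia.

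The values were FPKM, which scale the fragments of a gene to its length and to the depth of the library, and their steps gave back the whole reads behind them, with effective library sizes of 11155940 to 16154387 reads. The labelled tissue matched its markers: a list of 11 sensory neuron genes summed to 1448 to 1799 FPKM in young sham, 1598 to 1777 FPKM in aged sham and 1469 to 1586 FPKM in aged injury libraries. Age went together with the sex of the pools. The Y-linked gene Ddx3y was at 13.8 to 15.7 FPKM in the young libraries, but aged sham replicate 1 had 10.9 FPKM, and the other 5 aged libraries had no more than 0.0133 FPKM, so age and sex of the mice cannot be told apart, and aged sham replicate 1 differed from its group. Nothing in the labels says more of the libraries than that they were separate pools, so that p-values measure the spread between pools.

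Th stood far above the other 6 genes. Its mean was 31.6 FPKM over the 9 libraries, from 8703 reads, which placed it 2718th of 22571 expressed identifiers by mean level in young sham, 1802nd of 22810 in aged sham and 2024th of 23254 in aged injury. Slc18a2 had a mean of 1.80 FPKM, Ddc of 0.307 FPKM, Phox2a of 0.0742 FPKM, Dbh of 0.0628 FPKM, Slc6a2 of 0.0592 FPKM and Hand2 of 0.0109 FPKM. The order Th, Slc18a2, Ddc and then the 4 others held in 9 of 9 libraries. Among the 4 lowest the order was not stable: Phox2a was above Dbh in 6 of 9 libraries, and Slc6a2 was above Dbh in 5 and above Phox2a in 5. A minimum mean of 0.2 FPKM over the libraries left 17601 genes to test. Of the 7 genes, Th, Slc18a2 and Ddc passed this filter, while Dbh, Slc6a2, Phox2a and Hand2 did not.

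In every library the level per length of Th exceeded those of its partners in noradrenaline synthesis. The ratio of Th to Slc18a2 FPKM was 7.61 to 17.6 in young sham, 15.7 to 42.2 in aged sham and 17.6 to 23.2 in aged injury libraries. The ratio to Ddc was 50.9 to 168, 108 to 150 and 90.8 to 99.1 in the same order of groups. Both ratios overlapped between groups, apart from that of Th to Ddc in aged sham and aged injury. With the other gene set to at least 3 reads per library, the limit that a count of 0 allows, Th was at least 205-fold above Dbh, at least 245-fold above Slc6a2, at least 142-fold above Phox2a and at least 170-fold above Hand2 in the library with the smallest ratio.

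**Figure D1:**
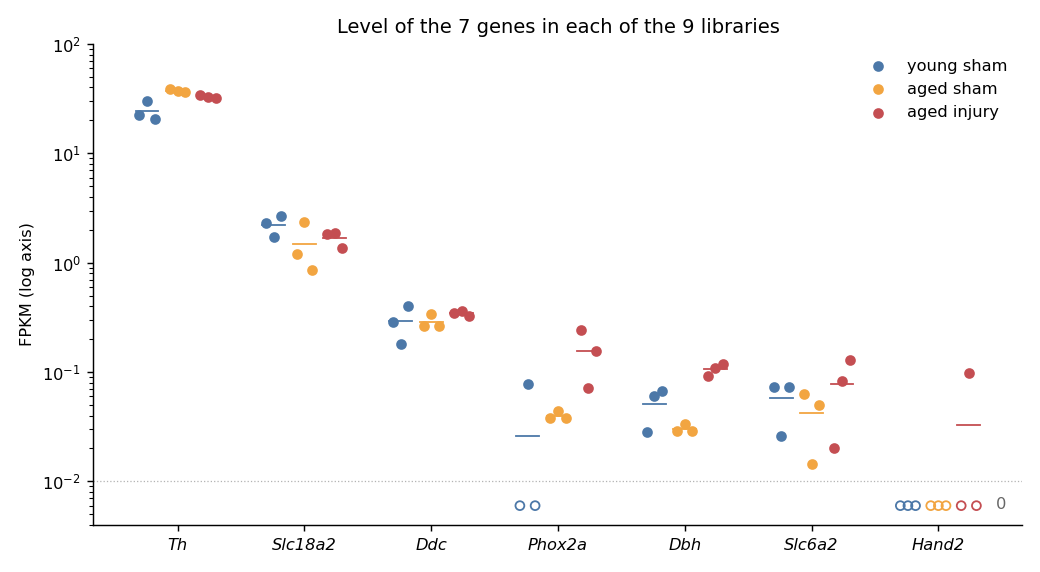
Level of each of the 7 genes in FPKM on a log axis, with 1 point per library, coloured by group, and a line at each group mean. Open circles under the dotted line are libraries listed at 0. Th lies between 20.4 and 39.1 FPKM, Slc18a2 between 0.858 and 2.69 FPKM, and no library of the 4 genes on the right exceeds 0.242 FPKM.

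The proximal promoters of Th and Dbh, the first and last enzymes of noradrenaline synthesis, are shown because they set an abundant first enzyme, with 539 reads or more per library, beside a last enzyme with 4 at most. Sequences are from RefSeq (build GRCm38.p6), 250 bases before the annotated start on the gene's strand, at chr7:142899996-142900245 (minus strand) for Th and chr2:27165257-27165506 (plus strand) for Dbh. These starts are those of RefSeq. The gene positions given below are from GENCODE and differ, so that both windows lie inside the gene spans printed there. Capitals mark the cyclic AMP response element, TGACGTCA.
Th: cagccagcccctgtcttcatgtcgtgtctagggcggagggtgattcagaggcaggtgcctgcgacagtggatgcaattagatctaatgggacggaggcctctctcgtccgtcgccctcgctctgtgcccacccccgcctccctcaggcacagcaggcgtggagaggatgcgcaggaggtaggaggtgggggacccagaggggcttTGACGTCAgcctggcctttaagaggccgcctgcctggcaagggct
Dbh: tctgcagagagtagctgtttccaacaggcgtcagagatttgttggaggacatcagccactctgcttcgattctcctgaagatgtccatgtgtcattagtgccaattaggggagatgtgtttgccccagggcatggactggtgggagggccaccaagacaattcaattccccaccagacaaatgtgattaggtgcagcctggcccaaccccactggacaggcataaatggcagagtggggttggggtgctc

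In the Th window the element ran from base -45 to base -38 counted from the start, and 1.55% of all 32851 promoter windows held it. Of the 7 genes, 6 had a promoter entry, Slc6a2 being without one, and the other 5 genes had no match in this window. The same element lay across the RefSeq start of Slc18a2, from base -4 to base 4, when all 300 bases of each entry were searched, a length chosen after the shorter window had been seen, with a match in 1.79% of promoters. This places it just before the GENCODE gene span given below. It is shown here because Slc18a2 is the second most abundant of the 7 (chr19:59260852-59260881, plus strand).
Slc18a2: cgccccctctcagcgctgtccgTGACGTCA

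Other motifs were searched on both strands. The AP-1 motif TGANTCA, in 6.75% of windows, was found in Th at bases -210 to -204 from the start and in 1 of 2 Ddc promoters at bases -129 to -123. E-boxes (CANNTG), present in 66.2% of windows, were in the windows of Th, Dbh, Slc18a2 and Hand2, and the homeodomain core TAATTA, present in 4.84%, was in that of Hand2. These are matches of letters and say nothing of binding.

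Th (ENSMUSG00000000214, chromosome 7, 142892752 to 142931128, minus strand) was higher in aged than in young ganglia. In young sham its level was 22.6, 30.2 and 20.4 FPKM, from 703, 888 and 539 reads. In aged sham it was 39.1, 36.9 and 36.2 FPKM, from 1189, 974 and 1101 reads, and in aged injury 34.4, 32.7 and 31.8 FPKM, from 1313, 1059 and 937 reads. No aged library fell as low as any young one, and each aged injury library was under each aged sham library. Young sham replicate 2 was the highest of its group, and the young group was the most spread.

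The group means of Th were 24.4 ± 5.15, 37.4 ± 1.5 and 32.9 ± 1.32 FPKM (SD, n = 3 each). The difference between aged and young sham was 0.63 on the log2 scale (SE 0.12), that between aged injury and young sham, which shares the young libraries, was 0.45 (SE 0.12). Both are differences of log2(FPKM + 0.1), and the median over all tested genes was 0.045 and 0.021. In aged ganglia the difference between injury and sham was -0.18 (SE 0.12, 95% interval -0.46 to 0.095) and did not pass the test (limma adjusted p = 0.466). The median of all tested genes was -0.011 there. Groups that did not overlap were common in this comparison, 25.4% of all tested genes, of which the lower ones were 13.7%, so that a lack of overlap like that of Th was common among all genes. Without aged sham replicate 1, the aged library with Ddx3y at 10.9 FPKM, the difference of Th between injury and sham was -0.15 (limma adjusted p = 0.64).

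Slc18a2, the vesicular transporter, had lower mean levels in aged than in young ganglia, with libraries that overlapped. Its gene lies on chromosome 19 (59260896 to 59296012, plus strand), and its exons overlap those of the antisense gene Gm29261. It was at 2.29, 1.71 and 2.69 FPKM in young sham, 1.21, 2.36 and 0.858 FPKM in aged sham, and 1.84, 1.86 and 1.37 FPKM in aged injury. The 3 aged sham libraries alone ran from the lowest value of all to the second highest. The log2 difference was -0.66 (SE 0.32) between aged and young sham, and 0.29 (95% interval -0.43 to 1.0, limma adjusted p = 0.669) between aged injury and aged sham. Without aged sham replicate 3 the latter was -0.013, and without aged sham replicate 2 it was 0.67, neither past the test.

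Ddc, the decarboxylase (chromosome 11, 11814101 to 11898144, minus strand), was low, with levels that overlapped across the groups. It was at 0.289, 0.180 and 0.402 FPKM in young sham, from 17, 10 and 20 reads. In aged sham it was at 0.261, 0.342 and 0.261 FPKM (15, 17 and 15 reads), and in aged injury at 0.347, 0.360 and 0.323 FPKM (25, 22 and 18 reads). The young libraries spanned all of the aged ones. The log2 difference was 0.025 (SE 0.31) with age, and its sign was negative in 6 of 19 other settings. Between aged injury and aged sham it was 0.20 (95% interval -0.50 to 0.89, limma adjusted p = 0.776), so that a rise of Ddc as large as the age difference of Th was within the interval.

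The 4 remaining genes rested on a few reads in each library. Dbh, whose product makes noradrenaline (chromosome 2, 27165233 to 27183200, plus strand), had 1, 2 and 2 reads in young sham, 1, 1 and 1 in aged sham, and 4, 4 and 4 in aged injury. These correspond to 0.028, 0.060 and 0.067 FPKM, 0.029, 0.033 and 0.029 FPKM, and 0.092, 0.108 and 0.119 FPKM. Every aged injury library was above every sham library. Among the tested genes, which leave Dbh out, 11.7% were higher without overlap against aged sham and 19.9% against young sham. Summed over each group, and scaled to library size, Dbh was at 0.136 RPM in young sham, 0.0813 RPM (exact Poisson 95% interval 0.0168 to 0.238) in aged sham and 0.283 RPM (0.147 to 0.495) in aged injury. The last 2 intervals, which cover counting error alone, overlap. With every expressed gene in the fit, the log2 difference between aged injury and aged sham was 0.66 (SE 0.20), which did not pass (limma adjusted p = 0.144, unadjusted p = 0.0087).

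Slc6a2, the noradrenaline transporter (chromosome 8, 92960079 to 93001667, plus strand), had 6, 2 and 5 reads in young sham, 5, 1 and 4 in aged sham, and 2, 7 and 10 in aged injury. Its level ran from 0.0145 to 0.130 FPKM, and all 3 groups overlapped. In the fit of every expressed gene, the difference between aged injury and aged sham was 0.28 on the log2 scale (limma adjusted p = 0.698).

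Phox2a, a homeodomain factor of autonomic neurons, lies on chromosome 7 (101818313 to 101822726, plus strand), and its exons overlap antisense exons of Inppl1. It had 0, 2 and 0 reads in young sham, 1, 1 and 1 in aged sham, and 8, 2 and 4 in aged injury, from 0 to 0.242 FPKM. Aged injury libraries were above aged sham libraries without overlap, which held for 11.7% of the tested genes. But young sham replicate 2, at 0.0785 FPKM, was above aged injury replicate 2, at 0.0712 FPKM. The log2 difference between aged injury and aged sham in the fit of every expressed gene was 0.82 (SE 0.32, limma adjusted p = 0.270). Hand2, a basic helix-loop-helix factor (chromosome 8, 57320983 to 57324633, plus strand), overlaps antisense exons of Hand2os1. It was listed at 0 in 8 of 9 libraries and at 0.0979 FPKM, about 3 reads by its annotated length, in aged injury replicate 2. Because the handling of strand is not given in the sources used here, reads of Slc18a2, Phox2a and Hand2 cannot be told apart from those of their antisense partners where these overlap.

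**Figure D2:**
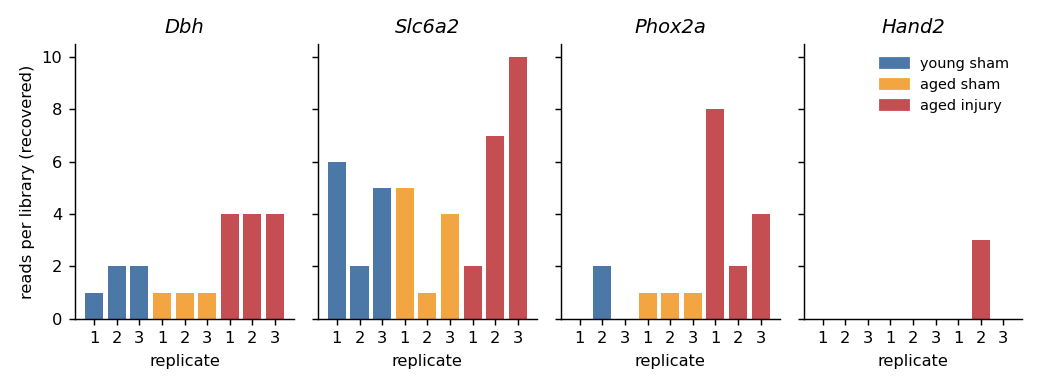
Whole reads per library behind the FPKM of the 4 genes under the filter, as bars from 0, coloured by group, with the replicate number below. Dbh has 4 reads in each aged injury library and 1 or 2 in each sham library, Slc6a2 reaches 10 reads, Phox2a 8, and Hand2 has reads in aged injury replicate 2 alone.

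Counted over the genes tested, 0 of the 3 passed between aged injury and aged sham by limma, against 4.11% of all genes (2.45% higher and 1.65% lower). At an unadjusted p under 0.05 there were also 0, against 19.8% of all genes, and limma voom on the recovered reads called 0. Between aged and young sham 1 of 3, Th, was called, where 4.02% of all genes were (2.53% higher and 1.49% lower), 26.3% had an unadjusted p under 0.05 and 29.2% had groups that did not overlap (17.7% higher and 11.5% lower). Between aged injury and young sham it was again Th, 1 of 3, against 13.1% of all genes (8.2% higher and 4.89% lower), with 29.4% at an unadjusted p under 0.05 and groups apart in 35.4% (19.9% higher and 15.5% lower). As Th was chosen for its difference with age, nothing is read from these last 2 counts, and they share the young libraries. Of 20 other settings of the analysis, the age difference of Th was called in 8, with log2 values of 0.52 to 0.80. Of the 9 fits that each left out 1 library, the call was kept in the 1 without young sham replicate 2 (limma adjusted p = 0.00517), and the other 8 gave adjusted p of 0.058 or more.

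Of 12 genes for catecholamine synthesis, storage, uptake and breakdown, 8 were tested. With age the 7 besides Th, which was chosen for that difference, did not pass by limma or by voom, where 4.02% of all genes were called by limma. Of the 8 with Th, 3 had an unadjusted p under 0.05 (26.3% of all genes), 2 higher and 1 lower, at a median log2 difference of 0.054 against 0.045 for all genes tested. After injury in aged ganglia 8 did not pass with either tool, where limma called 4.11% of all genes, and 0 had an unadjusted p under 0.05, at a median of 0.11 against -0.011. The most abundant of these 12 besides Th were Cyb561, an electron carrier of the vesicle membrane, and Maoa, a monoamine oxidase that breaks down noradrenaline. Cyb561 was at 21.2 ± 2.2, 20.1 ± 1.51 and 21.9 ± 1.60 FPKM (SD, n = 3) in young sham, aged sham and aged injury, with a limma adjusted p of 0.654 for age and 0.522 for injury. Maoa was at 22.3 ± 2.07, 18.1 ± 1.97 and 19.4 ± 0.668 FPKM (SD, n = 3), with an adjusted p of 0.0838 and 0.577. Pnmt, which makes adrenaline, was listed at 0 in 9 of 9 libraries, and the dopamine transporter gene Slc6a3 was at no more than 0.0219 FPKM.

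Tyrosine hydroxylase needs tetrahydrobiopterin, and of 8 genes that make, regulate or recycle this cofactor 1 rose after injury, where 2.45% of all genes were called higher. It was Gch1, which encodes GTP cyclohydrolase, the rate-limiting enzyme of cofactor synthesis. Its level was 1.97, 1.97 and 1.74 FPKM in young sham, 2.58, 2.36 and 2.29 FPKM in aged sham, and 3.88, 3.31 and 3.76 FPKM in aged injury. No group overlapped another, and the order was young sham, aged sham, aged injury, whereas Th was highest in aged sham.

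Between aged injury and aged sham Gch1 rose by 0.58 on the log2 scale (SE 0.10, limma adjusted p = 0.0183), and without aged sham replicate 1 by 0.63 (adjusted p = 0.030). The call was lost with the 2 groups alone (adjusted p = 0.0547), with the replicate number as a block (0.0507) and in 4 of 9 fits without 1 library, those without aged sham replicates 2 or 3 or aged injury replicates 1 or 3 (0.0646 to 0.0904). The other 7 cofactor genes did not pass, and the list had a median of -0.076. With age 0 of 8 were called by limma and 0 by voom, against 4.02% of all genes, with 3 of 8 at an unadjusted p under 0.05 (26.3% of all genes) and a median of 0.14. Qdpr, which recycles the cofactor, was at 65.6 ± 3.64, 70.8 ± 7.98 and 70.8 ± 3.12 FPKM.

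**Figure D3:**
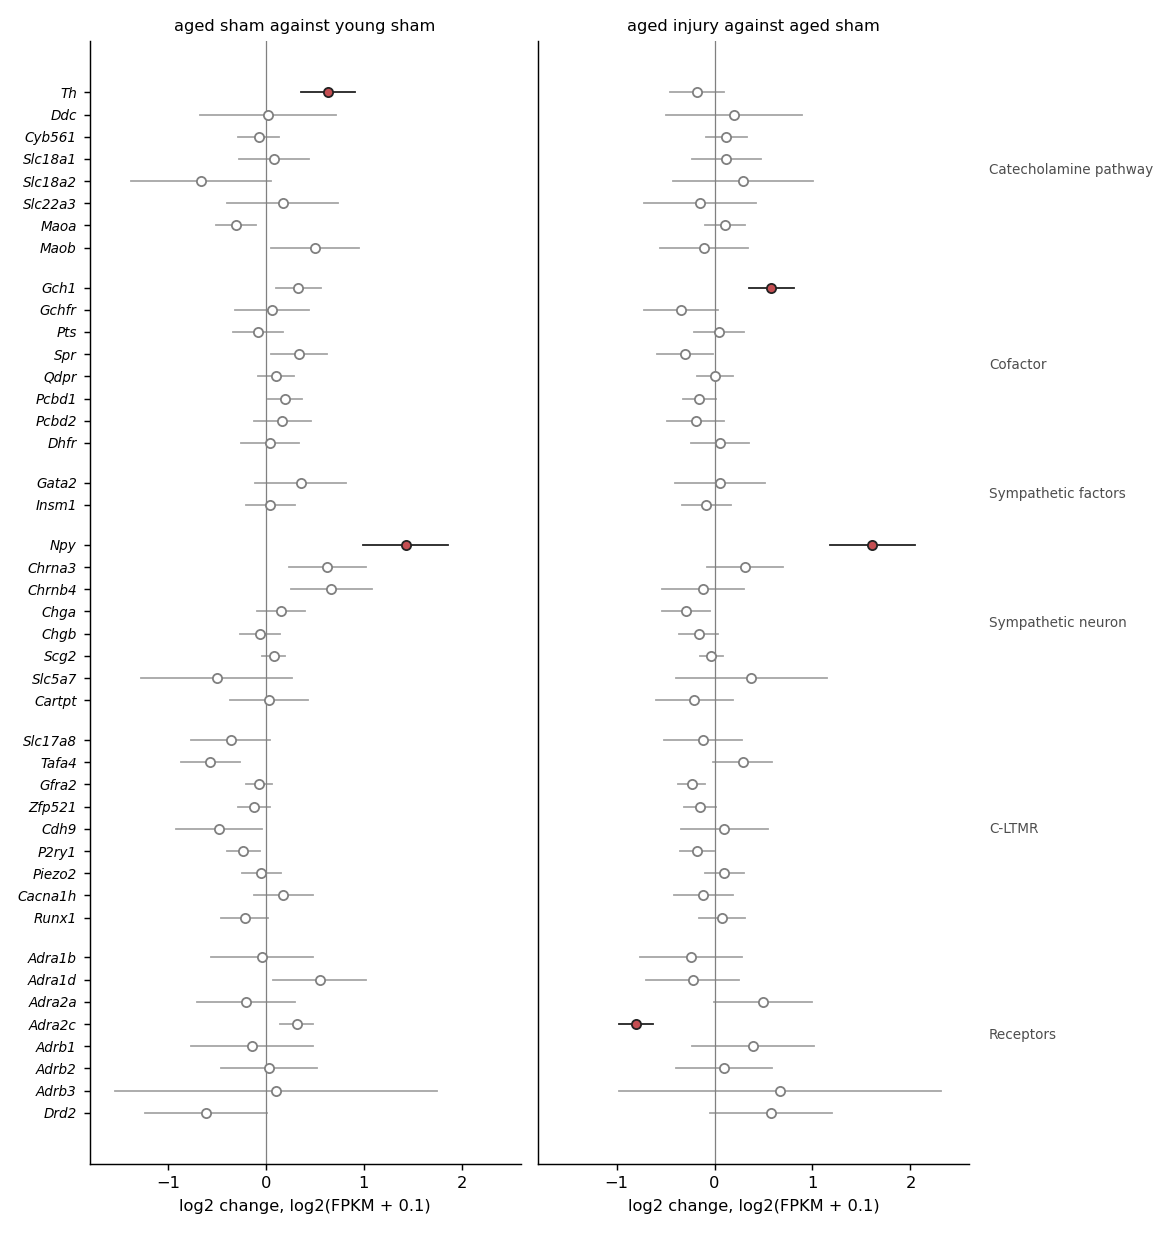
Log2 difference of each tested gene of 6 lists, on the log2(FPKM + 0.1) scale, between aged and young sham (left) and between aged injury and aged sham (right), with 95% intervals from limma. C-LTMR stands for C-fibre low-threshold mechanoreceptors. Filled points passed an adjusted p of 0.05: Th and Npy on the left, and Gch1, Npy and Adra2c on the right.

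Transcription factors of the sympathetic lineage were scarce in these ganglia. Of 6, only Gata2 and Insm1 passed the filter, and 0 of 2 were called in each of the 3 comparisons by limma, at an unadjusted p under 0.05 or by voom. Gata2, which sympathetic neurons share with other cells, was at 0.662 ± 0.144, 0.864 ± 0.0552 and 0.911 ± 0.181 FPKM (SD, n = 3), and Insm1, a factor of neuroendocrine cells, at 2.05 ± 0.188, 2.11 ± 0.0506 and 1.99 ± 0.182 FPKM. Hand1 was listed at 0 in 9 of 9 libraries. Gata3 was at 0 to 0.0225 FPKM in young sham, 0.0195 to 0.113 FPKM in aged sham and 0.0605 to 0.202 FPKM in aged injury.

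Among other genes known from sympathetic neurons, Npy rose. This list of 11 was chosen with earlier results on Npy known, had 8 tested genes, and 1 of the 8 was called with age (4.02% of all genes) and 1 after injury in aged ganglia (4.11% of all genes), Npy both times. Npy encodes neuropeptide Y, a transmitter that sympathetic neurons release with noradrenaline and that injured sensory neurons are also known to make. It was at 1.61, 1.28 and 1.42 FPKM in young sham, 5.63, 3.01 and 3.84 FPKM in aged sham, and 13.0, 11.7 and 12.7 FPKM in aged injury. The 3 groups were separate, and aged sham replicate 1 was the highest of its group. Between aged injury and aged sham Npy rose by 1.61 on the log2 scale (SE 0.19, limma adjusted p = 0.00486), by 1.85 without aged sham replicate 1, and in 20 of 20 other settings it was called. Its difference with age was 1.43 (limma adjusted p = 0.0167), called in 16 of 20 other settings, and not with the 2 groups alone (adjusted p = 0.0867) or without young sham replicates 1 or 3 or aged sham replicate 3 (0.0607 to 0.0733).

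The other 7 tested genes of that list did not pass in either comparison, and the list median was 0.12 with age and -0.076 after injury. At an unadjusted p under 0.05, 3 of the 8 were higher with age and 0 lower, against 26.3% of all genes in either direction. Besides Npy these were Chrna3, at a log2 difference of 0.63 (limma adjusted p = 0.0695), and Chrnb4, at 0.67 (adjusted p = 0.069). That of Th was 0.63. After injury 1 was higher and 1 lower (19.8% of all genes in either direction). Scg2 and Chga, granins of secretory vesicles and the most abundant of the list, were at 196 ± 5.50, 207 ± 3.04 and 203 ± 8.23 FPKM and at 82.4 ± 7.96, 91.8 ± 12 and 74.8 ± 6.63 FPKM (SD, n = 3). Chrna3, a nicotinic receptor subunit of autonomic ganglia, was at 3.16, 2.32 and 2.01 FPKM in young sham, 3.11, 4.33 and 4.20 FPKM in aged sham, and 5.0, 4.95 and 4.44 FPKM in aged injury. It was called between aged injury and young sham (0.94 on the log2 scale, limma adjusted p = 0.011), but not with the level of Y-linked genes as a covariate (0.45, adjusted p = 0.539). Vip was listed at 0 in 2 young sham libraries and at 0.0587 FPKM in young sham replicate 3. It was at 0 in aged sham and at 0.0478 to 0.157 FPKM in aged injury, which overlapped young sham. Chat, the enzyme for acetylcholine, was at 0.0319 FPKM or less throughout.

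As a check of cell types, a list of 10 marker genes of sympathetic neurons, Th among them, summed without Th to 3.69 to 4.91 FPKM in young sham, 5.69 to 7.91 FPKM in aged sham and 15.0 to 16.1 FPKM in aged injury. Of these sums Npy alone gave 13.0, 11.7 and 12.7 FPKM in aged injury. Of the low members of this list, Hand1 was at 0 throughout, and Hand2 was at 0 in 8 of 9 libraries and above 0 in aged injury replicate 2. Dbh, Phox2a and Gata3 had higher means in aged injury than in aged sham, at the levels given above. So did Slc6a2, at 0.0775 against 0.0426 FPKM, with libraries that overlapped. Markers of chromaffin cells without Th, mostly Chga, summed to 74.2 to 88.4, 83.2 to 106 and 69.3 to 82.8 FPKM, with Pnmt at 0. In whole ganglia, fewer cells of a type and less RNA per cell cannot be told apart.

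Of 9 listed genes of C-fibre low-threshold mechanoreceptors besides Th, 0 rose and 0 fell with age by limma, where 4.02% of all genes tested were called, so that the count is near the share of all genes. Of the 9, 8 had a negative log2 difference, and the median was -0.22 against 0.045 for all genes tested. At an unadjusted p under 0.05, 3 of 9 were lower and 0 higher, against 26.3% of all genes in either direction, and voom called 1, Tafa4, lower. Tafa4, a secreted protein of these neurons, was at 20.9, 26.2 and 23.5 FPKM in young sham, 19.4, 14.7 and 13.8 FPKM in aged sham, and 20.3, 20.5 and 17.4 FPKM in aged injury. Its young libraries were all above the aged ones, the reverse of Th, at a log2 difference of -0.57 with age that did not pass with limma (adjusted p = 0.0509). Slc17a8, the vesicular glutamate transporter that marks these neurons, was at 3.52 ± 0.328, 2.75 ± 0.504 and 2.54 ± 0.540 FPKM (SD, n = 3).

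After injury in aged ganglia, 0 of the 9 passed with limma or voom, 2 of 9 were lower at an unadjusted p under 0.05 (19.8% of all genes in either direction), and the median was -0.11. Gfra2, the receptor for neurturin, was the most abundant of them, at 46.2, 48.5 and 49.0 FPKM in young sham, 44.9, 47.8 and 44.3 FPKM in aged sham, and 38.7, 41.2 and 36.6 FPKM in aged injury. Its injury libraries were all below the sham ones (-0.23 on the log2 scale, limma adjusted p = 0.065). Against young sham, where Th was higher, Gfra2, Zfp521 and P2ry1 fell, 3 of 9, with 4.89% of all genes called lower. Which cells of the whole ganglia the RNA of the 9 came from was not tested. Their values are therefore not read as those of C-fibre low-threshold mechanoreceptors alone. Gfra2 fell by 0.30 on the log2 scale (limma adjusted p = 0.0134), not called without young sham replicate 3 or aged injury replicate 3 (0.0543 and 0.0518) or with the Y-linked level as a covariate (0.219), and called in the other 17 of 20 settings. Zfp521, a zinc finger protein, fell by 0.27 on the log2 scale (limma adjusted p = 0.042), and was called in 9 of 20 other settings. No filter on low values ended the call (adjusted p = 0.0553), as did a fit of the 2 groups by themselves (0.0739), a replicate block (0.0851) and the Y-linked level as a covariate (0.392). Of 9 fits without 1 library 2 kept it, those without aged sham replicate 1 or aged injury replicate 2 (adjusted p of up to 0.136 in the others). P2ry1, a receptor for ADP, fell by 0.41 from 16.1 ± 0.225 to 12.1 ± 1.16 FPKM (limma adjusted p = 0.0108), and by 0.29 with the Y-linked level as a covariate (0.403).

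**Figure D4:**
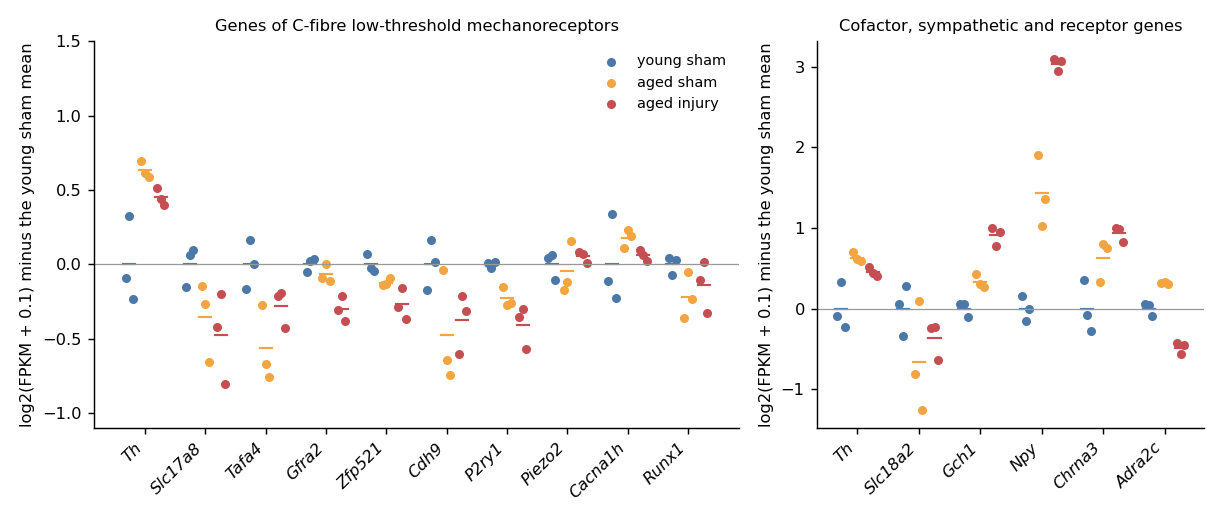
Level of each gene per library on the log2(FPKM + 0.1) scale, minus the young sham mean of that gene, with 1 point per library, coloured by group, and a line at each group mean. On the left, Th is above 0 in the 6 aged libraries and Tafa4 and P2ry1 are below 0 in all 6. On the right, Npy and Gch1 are highest in aged injury and Adra2c is lowest there.

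Of 14 catecholamine receptor genes 8 were tested, and 1 of the 8, Adra2c, fell after injury, where 1.65% of all genes were called lower. It encodes an alpha-2 adrenergic receptor, a class that inhibits transmitter release. It was at 4.77, 4.71 and 4.29 FPKM in young sham, 5.71, 5.81 and 5.66 FPKM in aged sham, and 3.37, 3.06 and 3.31 FPKM in aged injury. The 3 groups were separate, with aged sham highest, as for Th. Between aged injury and aged sham it fell by 0.80 on the log2 scale (SE 0.076, limma adjusted p = 0.0042), with the same value without aged sham replicate 1, and it was called in 20 of 20 other settings. The other 7 did not pass, and the list median was 0.24. With age 0 of 8 were called by limma and 0 by voom, where limma called 4.02% of all genes, 2 of 8 had an unadjusted p under 0.05 (26.3% of all genes), and Adra2c differed by 0.31 (adjusted p = 0.0521). Adra2a, a relative of Adra2c, was at 1.93 ± 0.589, 1.64 ± 0.311 and 2.34 ± 0.384 FPKM.

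The genes closest to Th in their pattern were sought among those with a mean of at least 1 FPKM. Of the other members Slc18a2 alone reached this level, so the ranking could not place Ddc, Dbh, Slc6a2, Phox2a or Hand2. Over the 9 libraries and the 12301 genes whose mean reached 1 FPKM, the highest Pearson correlations with Th, given as a description, were those of Anxa11 (r = 0.984), Arvcf (0.983), Ndufa11 (0.983), Snrpb (0.982) and Lrp10 (0.981). All 5 were highest on average in aged sham. Anxa11, a calcium-binding annexin, was at 4.47 to 5.99 FPKM in young sham, 7.24 to 8.38 FPKM in aged sham and 6.71 to 7.10 FPKM in aged injury. In the deviations of each library from its group mean, r with Th was 0.93 to 0.96 for these 5. The libraries share their age groups and depth, and the 5 were picked from 12301 genes in these same 9 libraries. Such values therefore do not set Th beside these genes in function. For Dbh, at 1 to 4 reads per library, no such ranking was made.

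Within groups Th did not follow Ddc or Slc18a2, the other tested members. In the deviations of each library from its group mean, a description over 9 libraries, Th had r = -0.87 with Ddc and -0.32 with Slc18a2, and Ddc had 0.70 with Slc18a2. The first rests on the young libraries, where replicate 2 was highest in Th and lowest in Ddc: without young sham replicates 2 and 3 it was -0.11. Pooled over groups, no value is given for Th, whose libraries separate by age. For Ddc with Slc18a2 the pooled values were r = 0.47 (two-sided exact permutation p = 0.199, 0.299 adjusted over 3 pairs) and Spearman's rho = 0.70 (exact permutation p = 0.0433, adjusted 0.13), and r was 0.66 without young sham replicates 2 and 3.

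Markers of sensory neurons and of other cells also differed between libraries and groups. In the same deviations, r with Th was 0.97 for Tlx3, a factor of sensory neurons, 0.95 for Spr, an enzyme of the cofactor, and 0.92 for Cacna1h, a calcium channel of touch neurons. The 11 sensory neuron markers summed highest, 1799 FPKM, in young sham replicate 2, which was also the young library with the most Th. With age 0 of these 11 rose by limma, where 2.53% of all genes were called higher. Isl1 and Pou4f1 fell, 2 of 11 against 1.49% of all genes called lower. At an unadjusted p under 0.05, 4 were higher and 2 lower, against 26.3% of all genes in either direction. Voom called 2 higher and 2 lower. The 4 Schwann cell markers summed to 2661 to 3061 FPKM in young sham, 1760 to 1871 FPKM in aged sham and 1533 to 1787 FPKM in aged injury, and the 4 satellite glia markers to 1389 to 1468, 1287 to 1453 and 1021 to 1148 FPKM. Most of the satellite glia sum was Apoe, with group means of 1166, 1132 and 922 FPKM. Of these 4, Gja1 was called lower with age by limma and the other 3 did not pass. Gja1 had group means of 13.4, 7.52 and 8.24 FPKM. Markers of skeletal muscle summed to 19 to 174, 6.56 to 120 and 1.72 to 15.1 FPKM, and those of adipocytes to 3.56 to 60.9, 7.20 to 30.1 and 5.46 to 33.3 FPKM. Melanocyte markers summed to 5.07 to 7.77 FPKM in young sham and to 1.02 FPKM or less in the aged groups, mostly Tyrp1. The part of any of these in the values of Th and its partners was not tested.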

How the data were processed

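The deposited values were FPKM per gene and library, which the authors had computed, per the file headers. Among the tools in the submitters' processing notes are the aligners TopHat2 2.0.12 and Bowtie2 2.2.3, the counter HTSeq 0.6.0, and edgeR 3.8.6, with the build mm10 and no role stated for any. Which annotation release was used, how strand was handled and what the libraries were scaled to is not given in the sources used here. Symbols and gene positions came from GENCODE M21 on the same build, and promoter windows from RefSeq. Columns were assigned to samples by age, treatment and number in their names.

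A mean of 0.2 FPKM or more was required, which 17601 of 45904 identifiers met, and these were tested on log2(FPKM + 0.1) with limma 3.58.1 in R 4.3.3, with the variance allowed to trend with the level, all 9 libraries in 1 fit, two-sided tests and Benjamini-Hochberg adjustment over all genes tested. The threshold for a call was an adjusted p of 0.05. This scale understates changes of low genes. Whole reads were recovered from the steps of the FPKM values, up to a common factor per gene, within 0.001 of a whole number for multiples up to 20000, in 17578 tested identifiers (99.9%). In 79.3% the size of the step was close to the one expected from gene length (at most root 2 apart). Intervals on reads are exact Poisson. Samples were the 3 labelled groups, and replicate numbers were treated as names.

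The 7 genes and the gene lists were chosen with earlier results of these data known. All 7 were named, as were list genes called in a comparison, otherwise the 2 most abundant of each list, and the 5 genes most correlated with Th. A few further list genes were named after their values were seen. Some genes of the lists are not reported here and were left out of the counts and sums. Scripts were tested on simulated data. Alternatives covered the pseudocount, filter, scaling, samples fitted, replicate block, Y-linked level, voom, library weights and leaving out each library.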

Additional observations from a re-analysis of the deposited data

How the results depend on the processing

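Counts over all genes hung on the settings. For aged against young sham, 707 genes were called (445 higher and 262 lower), against 239 with no filter, 31 with the 2 groups alone, 8 with the Y-linked level as a covariate, 1072 with voom on recovered reads, 2020 with library weights, and 23 to 1536 without 1 library. For aged injury against aged sham, 723 were called, against 302 with the 2 groups alone and 151 to 740 without 1 library. For aged injury against young sham, 2304 were called, against 145 with the Y-linked level, 3755 with library weights and 869 to 2365 without 1 library. Equal medians gave 281 higher and 536 lower genes with age, and quantile normalization 388 and 509. Equal medians gave 287 and 294 after injury in aged ganglia, against 432 and 291, and 1029 and 1670 against young sham, where quantile normalization gave 1168 and 1241 and the main setting 1444 and 860.

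Of the 3 tested members, the count called with age, 1, was 0 with no filter, the 2 groups alone, the replicate block and the Y-linked level, and 0 to 1 without 1 library. Against young sham, the injury count of 1 was 0 in those 4 settings and with equal medians, and 0 to 1 without 1 library. Between aged injury and aged sham it was 0 in every setting run. The log2 difference of Th was 0.52 to 0.80 with age and -0.21 to -0.15 after injury over the 20 alternatives to each, so its sign held in all of them. The correlations of deviations from the group means, -0.87 for Th and Ddc, -0.32 for Th and Slc18a2 and 0.70 for Ddc and Slc18a2, differed from the pooled ones. The causes were not tested, apart from the fewer samples or genes that some settings use by their construction.

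With the replicate number as a block, 101 genes were called with age and 273 after injury in aged ganglia. Deviations of same-numbered libraries correlated at 0.24, 0.27 and 0.062 between the aged groups and at -0.067 to -0.020 between young and aged, so the numbers were not taken to pair the samples. Between the aged groups every library correlated best with its own number, a hint from the data and not from the design.

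Depth limited Dbh, Slc6a2, Phox2a and Hand2, whose 0 to 10 reads per library leave wide counting error in every comparison.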
